A study of Mus musculus with 12 samples.

Results

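Transcript levels of 63 G protein-coupled receptor genes were compared in lipopolysaccharide-treated macrophages that carried GFP, wild-type IRX3 or 1 of 2 serine-to-alanine versions of IRX3. The genes were chosen by symbol: those beginning with Gpr and a digit, Adgr, S1pr, Lpar, Ptger, Ptgir, Ccr and a digit, Ccrl, Cxcr, Cysltr, Fpr, Ffar, Hcar, Ackr or Mrgpr, without Gpr183, Adgre1 and 13 pseudogenes. Of 176 genes with such a symbol, 63 had at least 10 normalized counts (read counts divided by a size factor per library) in at least 3 of the 12 libraries. The table holds 55401 genes, of which 13369 passed the same filter. The choice therefore used the level of a gene, and the levels themselves are given as a description. Just inside the limit, Gpr4 reached 10 in 3 libraries (range 1.86 to 14.8) and Cxcr6 in 4 (range 1.99 to 15.6). Just outside it, Gpr34 reached 10 in 2 libraries (range 1.97 to 11.2), and no Ffar or Ackr gene passed. The 63 genes comprise 10 chemokine receptors, 5 leukotriene and formyl peptide receptors, 8 lysophospholipid receptors, 5 prostanoid receptors, 10 metabolite and proton receptors, 9 adhesion receptors and 16 other Gpr genes.

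G protein-coupled receptors are membrane proteins that bind a ligand outside the cell and activate a heterotrimeric G protein inside it. Gs raises cyclic AMP, Gi lowers it, Gq activates phospholipase C, and G12 and G13 act on the cytoskeleton. Receptor kinases, arrestins and RGS proteins end the signal. In macrophages such receptors read chemokines, bacterial formyl peptides, prostaglandins, leukotrienes, lysophospholipids, protons and metabolites, and so steer migration and the tone of inflammation. Some proteins with a Gpr symbol, such as Gpr89, Gpr107, Gpr108, Gpr137b, Gpr155 and Gpr180, sit in inner membranes or are not known to couple to G proteins. The name of the group rests on the symbols, and transcript levels do not check it.

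The cells were bone-marrow-derived macrophages (BMDMs) of Irx3-/- mice of the strain C57BL/6J, which had been cultured in 20 nM M-CSF, a macrophage growth factor, over 7 days. Adeno-associated virus delivered GFP (the control group), IRX3_WT, IRX3_S361A or IRX3_S389A, with 3 libraries per construct. IRX3 is an Iroquois homeobox protein that binds DNA. The cells of every library had received lipopolysaccharide (LPS), a product of bacterial walls, at 100 ng/ml during 4 h, so no unstimulated cells and no cells with native Irx3 are compared. The labels do not say whether the libraries of a group came from separate animals or cultures, and the p-values measure the spread between these libraries only. The promoter of the vectors is not given in the labels.

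Recovered reads per library ran from 17149058 to 20108002, and 3 reads, the counting floor, correspond to 2.67 to 3.41 normalized counts. Irx3 was at 0 in the 3 GFP libraries, 177 ± 16.3 (mean ± SD, n = 3 here and below) with IRX3_WT, 349 ± 21.5 with IRX3_S361A and 187 ± 20.2 with IRX3_S389A. The Irx3 transcript was thus higher with IRX3_S361A than with IRX3_WT (limma log2 change 0.97, SE 0.19, adjusted p = 0.000197), and an effect of the S361A substitution cannot be told apart from one of transcript level. The 8 macrophage markers summed to 359792 to 370143 normalized counts with GFP and 389296 to 393725 with IRX3_WT. With IRX3_S361A their sum was 416752 to 429929, and with IRX3_S389A it was 393368 to 406993. The macrophage sums were thus lowest with GFP and highest with IRX3_S361A, and the part of this difference in the results was not tested. Of the other cell types' defining markers, Ly6g, Mpo, Elane, Cd2, Fcer1a and Prg2 were at 0 in all 12 libraries. The neutrophil list summed to 185 to 281 and the stromal and endothelial list to 111 to 286, both higher with IRX3_WT than with GFP on average, and their part in the results was not tested. In bulk RNA, fewer cells of a type and less RNA per cell cannot be told apart.

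Per kilobase of exon, the most abundant transcript among the 63 members was Fpr2. Its mean was 7892 normalized counts per kb over the 12 libraries (5983 to 10489), below the 13111 of the excluded receptor Adgre1. It was followed by Fpr1 at 5925 (4631 to 8534) and Ccrl2 at 2918 (1862 to 3959). Next came Gpr84 at 1677 per kb (1364 to 2036) and Hcar2 at 1054 (863 to 1198). With all constructs pooled, the ranges of Fpr2 and Fpr1 overlapped, and so did those of Ccrl2 and Gpr84. These 5 genes were the only members with a mean of at least 1000 per kb. A further 16 lay between 100 and 1000, 20 between 10 and 100, and 22 below 10. The receptors for formyl peptides, an atypical chemoattractant receptor and receptors for fatty and hydroxycarboxylic acids therefore stood at the top of the order, while Gpr179 was last at 0.9 per kb.

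**Figure D1:**
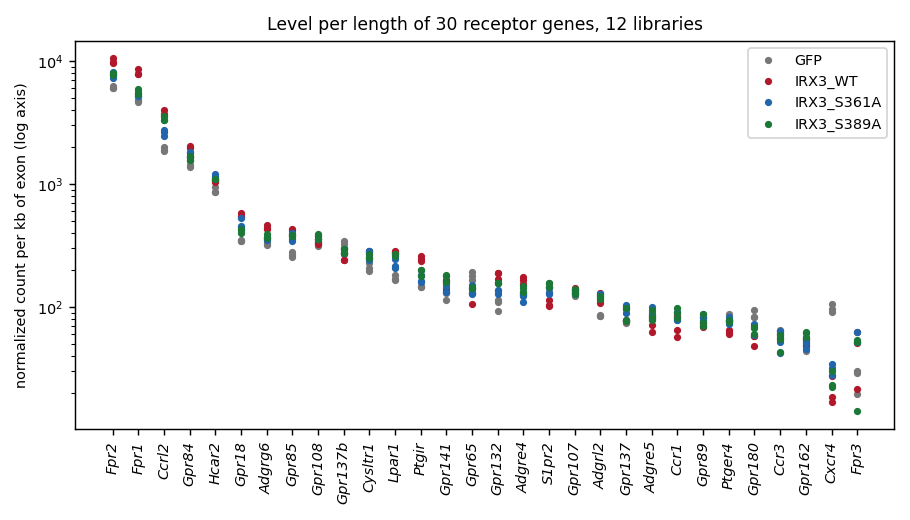
Normalized count per kb of exon (log axis) of 30 receptor genes, in order of their mean from the highest, 1 point per library, coloured by construct. Fpr2, Fpr1, Ccrl2, Gpr84 and Hcar2 stand above 1000 on average, and the GFP points lie below the IRX3_WT points for these 5 genes and above them for Cxcr4.

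IRX3_WT was compared with GFP to ask which receptor transcripts differed when IRX3 was put back into cells lacking it. Of the 63 genes, 19 were higher and 17 lower with IRX3_WT (limma on log2 values, adjusted p under 0.05 over all 13369 genes), against 21% and 18.6% of all genes tested. Together 36 of the 63 members were called (57.1%), against 39.6% of all genes. At a change of at least 1.5-fold the count was 23 of the 63, against 11.6% of all genes. Fpr1, Fpr2, Cysltr1, Cysltr2, Ccrl2, Ptgir, Lpar1 and Gpr132 were among the higher genes. Cxcr4, Ccr2, S1pr1, Lpar5 and Lpar6 were among the lower ones. The median log2 change of the 63 genes was 0.04, beside -0.01 for all genes tested. With libraries scaled to equal totals, the median of all genes moved to -0.18 and the split became 16 higher and 23 lower. Under that scaling 33 of the 36 calls remained, those lost being Ccr9, Hcar2 and Gpr141.

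A total of 48 members had at least 10 normalized counts in all 12 libraries, and 31 of these were called. Among the 15 others, 5 were called: Lpar5, Ccr7, Gpr176, Gpr19 and Adgrl1. Leaving out 1 library at a time ended 7 of the 36 calls at least once, those of Adgrb2, Adgrl1, Ccr1, Ccr7, Ccr9, Gpr157 and Gpr19. None of the 36 changed direction under any of the settings tried.

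**Figure D2:**
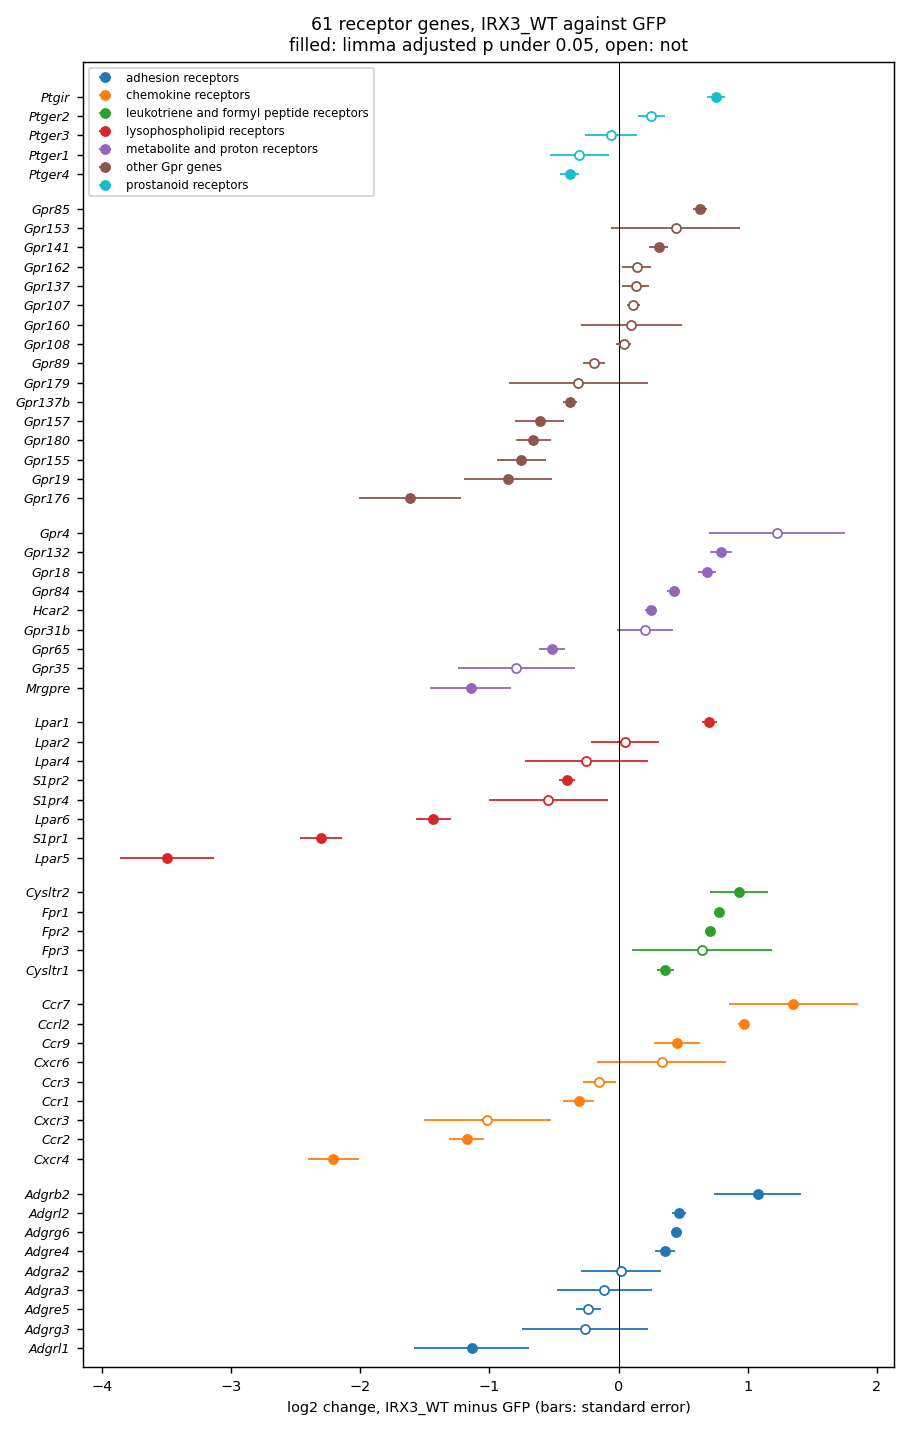
Log2 change between IRX3_WT and GFP (horizontal axis) of 61 receptor genes, grouped by receptor class, with the standard error as a bar. Filled points passed an adjusted p of 0.05. The largest fall was that of Lpar5 at -3.50, and all 5 leukotriene and formyl peptide receptors lie to the right of 0, with Fpr3 open.

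Among the chemokine receptors, 3 rose and 3 fell of 10, against 21% and 18.6% of all genes tested. Cxcr4, the receptor of Cxcl12 that holds myeloid cells in the marrow, was at 163, 189.7 and 173 normalized counts in the GFP libraries. It was at 30.5, 33.2 and 50.1 in the IRX3_WT libraries, so the groups lay far apart (log2 change -2.21, SE 0.19, adjusted p = 4.57e-12). The gene lies on chromosome 1 at 128588199 to 128592293 (mm10), with no other gene over its exons. Ccr2, the receptor through which monocytes follow Ccl2, read 215, 262 and 219.9 with GFP and 90.6, 114 and 102 with IRX3_WT (log2 change -1.18, SE 0.13, adjusted p = 2.78e-09). No IRX3_WT library reached the lowest GFP library for either gene. Ccr1, a receptor of Ccl3 and Ccl5, had a mean of 238 ± 17.8 with GFP and 194 ± 39.4 with IRX3_WT (log2 change -0.31, SE 0.12, adjusted p = 0.0339). Its groups overlapped, and the call was lost without GFP replicate 1 or 3 or without IRX3_WT replicate 2 or 3 (adjusted p up to 0.258). The call of Ccr1 was also lost with DESeq2 on the recovered reads.

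Ccrl2 was the member with the smallest p. It encodes an atypical receptor that binds the chemoattractant chemerin and does not signal through G proteins in the usual way. Its GFP libraries read 4837, 5164 and 4892 and its IRX3_WT libraries 10286, 9585 and 9317 (log2 change 0.97, SE 0.04, adjusted p = 5.27e-20). All IRX3_WT values exceeded all GFP values by a wide margin. Ccr7, the lymph node homing receptor, was low throughout, with 1.86, 8.29 and 9.80 normalized counts with GFP and 21.7, 8.31 and 21.6 with IRX3_WT (log2 change 1.35, SE 0.50, adjusted p = 0.0288). These groups overlapped, 1 GFP library lay under the counting floor, and the call was lost without GFP replicate 1, IRX3_WT replicate 1 or IRX3_WT replicate 3 (adjusted p up to 0.255). The dendritic cell markers, another source of Ccr7, summed to 13.1 to 30.5 over the 12 libraries. Ccr9, the Ccl25 receptor, had a mean of 58.1 ± 9.18 with GFP and 79.5 ± 6.85 with IRX3_WT (log2 change 0.45, SE 0.18, adjusted p = 0.04). Other genes cover 21.5% of its exon bases, and its call was lost without GFP replicate 1 or 3 or IRX3_WT replicate 1 or 3 (adjusted p up to 0.167). The call of Ccr9 was also lost with DESeq2 on the recovered reads.

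Ccr3, Cxcr3 and Cxcr6 were not called in any of the 6 comparisons between constructs.

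**Figure D3:**
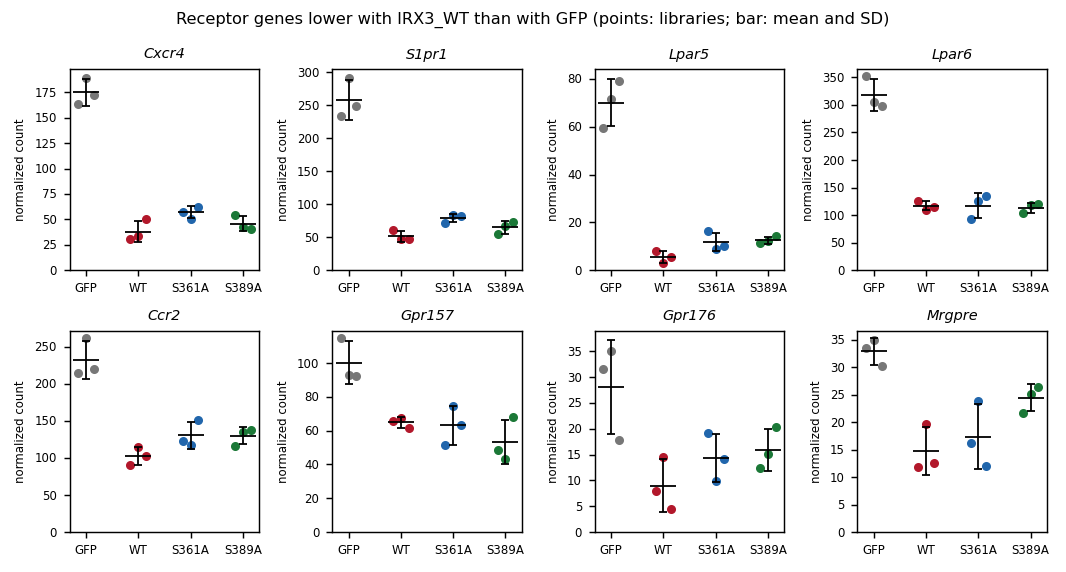
Normalized counts by library (points), with mean and SD (bars), of 8 receptor genes that were lower with IRX3_WT than with GFP, for the 4 constructs. In each panel all GFP points lie above all IRX3_WT points, and the S361A and S389A points of Cxcr4, S1pr1, Lpar5, Lpar6 and Ccr2 stay below the GFP points.

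The lysophospholipid receptors held the largest falls, with 4 lower and 1 higher of 8, against 18.6% and 21% of all genes tested. S1pr1, the sphingosine 1-phosphate receptor that drives exit of leukocytes from tissues, read 234, 292 and 248 normalized counts with GFP and 61.0, 46.7 and 46.7 with IRX3_WT (log2 change -2.31, SE 0.16, adjusted p = 9.95e-15). Lpar5, a receptor of lysophosphatidic acid, read 59.4, 71.8 and 79.3 with GFP and only 7.88, 3.12 and 5.69 with IRX3_WT (log2 change -3.50, SE 0.36, adjusted p = 3e-10). The lowest IRX3_WT value of Lpar5 is 3 reads, at the counting floor. Lpar6, another lysophosphatidic acid receptor, which lies inside an intron of the retinoblastoma gene Rb1, read 352, 306 and 298 and 126, 110.1 and 115 (log2 change -1.44, SE 0.13, adjusted p = 2.15e-11). For these 3 genes no GFP library came near an IRX3_WT library. Rb1, annotated on the other strand, covers 7.56% of the exon bases of Lpar6.

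S1pr2, which acts through G12 and G13 and opposes migration, fell less. Its GFP libraries read 1161, 1056 and 1162 and its IRX3_WT libraries 811, 916 and 834, without overlap (log2 change -0.40, SE 0.06, adjusted p = 8.13e-07). Lpar1 went the other way, from 717, 780.0 and 714 with GFP to 1187, 1219 and 1193 with IRX3_WT (log2 change 0.70, SE 0.06, adjusted p = 2.16e-12). Receptors of the same lipid thus changed in opposite directions, with Lpar1 higher and Lpar5 and Lpar6 lower. The means over the 12 libraries of the uncalled Lpar2, Lpar4 and S1pr4 were 33.8, 9.30 and 14.2.

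Of the 5 leukotriene and formyl peptide receptors, 4 rose and none fell, against 21% and 18.6% of all genes tested. Fpr1, a receptor of bacterial N-formyl peptides, read 6132, 6321 and 6318 with GFP and 11299, 10458 and 10446 with IRX3_WT (log2 change 0.78, SE 0.04, adjusted p = 2.94e-19). Fpr2, which binds formyl peptides, serum amyloid A and the resolving mediators annexin A1 and lipoxin A4, read 7819, 7754 and 8099.8 and 13594, 12745 and 12428 (log2 change 0.71, SE 0.04, adjusted p = 7.95e-18). The 2 genes lie 3883 bases apart on chromosome 17, Fpr1 at 17876471 to 17883940 on the minus strand and Fpr2 at 17887824 to 17893952 on the plus strand (mm10). Neither overlapped between the groups. The near relative Fpr3 stood at 38.1, 36.8 and 24.9 with GFP and 64.0, 78.9 and 27.3 with IRX3_WT and was not called (log2 change 0.65, SE 0.54, adjusted p = 0.399). Fpr3 shares 3.79% of its exon bases with Fpr2, so how reads were divided between them is uncertain.

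Formyl peptide receptors are also neutrophil genes. With GFP the 10 neutrophil markers summed to between 185 and 249 normalized counts, and with IRX3_WT to between 245 and 281, most of it Mmp8. Of these, S100a8 was higher with IRX3_WT (12.8 ± 1.18 with GFP, 29.2 ± 4.81 with IRX3_WT, log2 change 1.12, SE 0.31, adjusted p = 0.00356). Ly6g, Mpo and Elane were at 0 in every library, and the part of neutrophils in the Fpr1 and Fpr2 values was not tested.

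The receptors of cysteinyl leukotrienes rose as well. Cysltr1 had 1082 ± 73.9 normalized counts with GFP and 1390.3 ± 90.2 with IRX3_WT (log2 change 0.36, SE 0.06, adjusted p = 2.13e-05). Cysltr2, far less abundant, read 45.5, 31.3 and 32.1 with GFP and 86.6, 53.0 and 71.7 with IRX3_WT (log2 change 0.93, SE 0.23, adjusted p = 0.000954). The lowest IRX3_WT library of each lay above the highest GFP library.

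**Figure D4:**
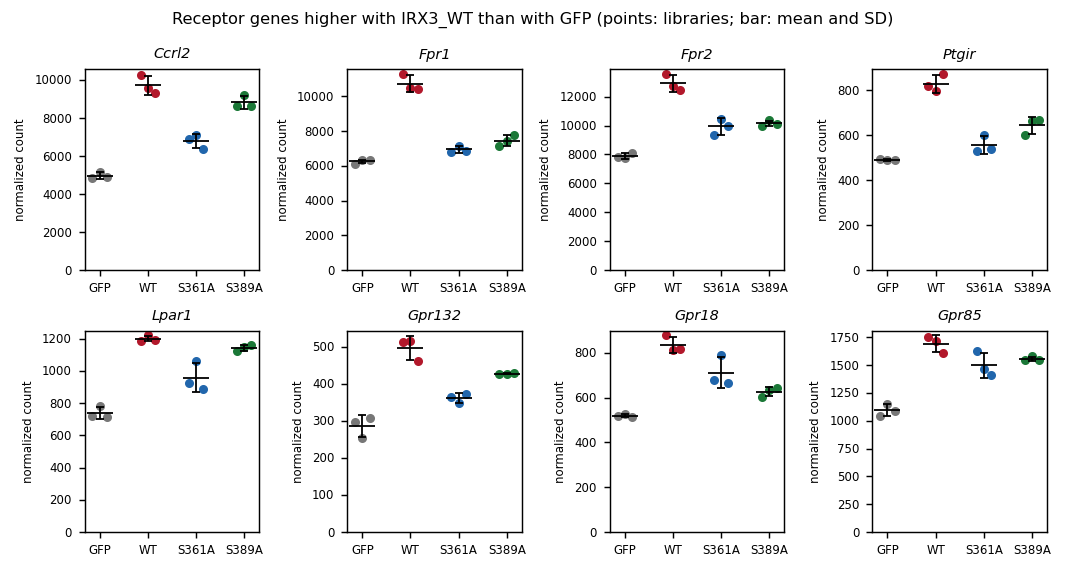
Normalized counts by library (points), with mean and SD (bars), of 8 receptor genes that were higher with IRX3_WT than with GFP, for the 4 constructs. In each panel the 3 IRX3_WT points lie above the 3 GFP points, and for Fpr1, Fpr2 and Ptgir the S361A and S389A points fall between these groups.

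Among the 5 prostanoid receptors, 1 rose and 1 fell, against 21% and 18.6% of all genes tested. Ptgir, the Gs-coupled receptor of prostacyclin, read 492, 488 and 487 with GFP and 817, 794 and 873 with IRX3_WT (log2 change 0.76, SE 0.07, adjusted p = 1.09e-11). The GFP libraries were tight and lay well below the others. Ptger4, a Gs-coupled receptor of prostaglandin E2 that restrains inflammatory output of macrophages, read 524, 515 and 586 with GFP and 402, 416 and 429 with IRX3_WT (log2 change -0.38, SE 0.07, adjusted p = 7.22e-05). It was lower with IRX3_WT in all 3 libraries. The other Gs-coupled receptor of prostaglandin E2, Ptger2, had a mean of 204 ± 16.1 with GFP and 243 ± 7.08 with IRX3_WT and was not called (log2 change 0.25, SE 0.11, adjusted p = 0.0562). The Gi-linked Ptger3 was not called here.

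Among the 10 metabolite and proton receptors, 4 rose and 2 fell, against 21% and 18.6% of all genes tested. Gpr132, a receptor studied for oxidized lipids and lactate, read 298, 252 and 308 with GFP and 512, 516 and 459.7 with IRX3_WT (log2 change 0.79, SE 0.08, adjusted p = 4.89e-10). Gpr18, which has been linked to N-arachidonoyl glycine and resolvin D2, read 516, 528 and 513 and 877, 814 and 817 (log2 change 0.69, SE 0.07, adjusted p = 8.63e-11). For both the groups were separate. Gpr84, a receptor of medium-chain fatty acids that LPS is known to induce, read 2437, 2354 and 2627 with GFP and 3393, 3513 and 3076 with IRX3_WT (log2 change 0.43, SE 0.05, adjusted p = 4.2e-09). A gene on the other strand covers 39.5% of the Gpr84 exon bases, and the strand setting of the counting is not known. Hcar2, the receptor of niacin and beta-hydroxybutyrate, had 1718 ± 82.7 with GFP and 2045 ± 52.3 with IRX3_WT (log2 change 0.25, SE 0.05, adjusted p = 2.18e-05).

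Gpr65, a proton sensor which raises cyclic AMP in acid surroundings, read 394, 342 and 371 with GFP and 287, 218 and 271 with IRX3_WT, without overlap (log2 change -0.52, SE 0.10, adjusted p = 5.03e-05). Another gene covers 24.7% of its exon bases. Gpr4, another proton sensor, was near the limit of the filter and not called. Mrgpre, a Mas-related orphan receptor, was low but clearly apart, at 33.4, 35.0 and 30.3 with GFP and 11.8, 19.7 and 12.5 with IRX3_WT (log2 change -1.14, SE 0.31, adjusted p = 0.00333).

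Adhesion receptors carry a long outer part cut from the membrane part. Of the 9 here, 4 rose and 1 fell, against 21% and 18.6% of all genes tested. Adgrg6, the most abundant of them, read 3884, 3966 and 4095 with GFP and 5679.6, 5362 and 5265 with IRX3_WT (log2 change 0.45, SE 0.04, adjusted p = 6.35e-12). Adgrl2, a latrophilin, read 1200.0, 1188 and 1215 and 1617, 1542 and 1837 (log2 change 0.47, SE 0.05, adjusted p = 2.35e-09). Adgre4, a myeloid receptor with EGF-like modules, had 449 ± 9.63 with GFP and 577 ± 36.2 with IRX3_WT (log2 change 0.36, SE 0.08, adjusted p = 0.000225). None of these overlapped between the groups.

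A pair of adhesion receptors changed at low levels. Adgrb2 read 26.9, 12.9 and 15.1 with GFP and 46.3, 33.2 and 35.3 with IRX3_WT (log2 change 1.08, SE 0.34, adjusted p = 0.0106). Its call was lost without GFP replicate 2 or IRX3_WT replicate 1 (adjusted p up to 0.0701). The latrophilin Adgrl1 had 12.7 ± 2.11 and 5.25 ± 0.956 (log2 change -1.14, SE 0.45, adjusted p = 0.0404), and leaving out any 1 of the 6 libraries of these groups ended that call (adjusted p up to 0.13). Adgre5, known as CD97, had 314 ± 11.4 with GFP and 268 ± 31.9 with IRX3_WT and just missed the threshold (log2 change -0.24, SE 0.10, adjusted p = 0.0512).

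The 16 other Gpr genes gave 2 rises and 6 falls, against 21% and 18.6% of all genes tested. Gpr85, a conserved orphan receptor, read 1042, 1151 and 1089 with GFP and 1751, 1719.6 and 1609 with IRX3_WT (log2 change 0.63, SE 0.05, adjusted p = 2.3e-12). Gpr141, an orphan of myeloid cells, had 751 ± 64.2 and 932 ± 78.5 (log2 change 0.31, SE 0.07, adjusted p = 0.000726). Both were separate between the groups. The strongest fall in this class was that of Gpr176, an orphan studied in the circadian clock, at 31.6, 35.0 and 17.8 with GFP and 7.88, 14.5 and 4.55 with IRX3_WT (log2 change -1.62, SE 0.40, adjusted p = 0.0011).

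Gpr155, a lysosomal protein studied as a cholesterol sensor, read 78.0, 98.5 and 94.4 with GFP and 41.3, 69.6 and 51.2 with IRX3_WT (log2 change -0.75, SE 0.19, adjusted p = 0.00144). Gpr180 read 154, 178 and 157 and 108, 109 and 91.0 (log2 change -0.66, SE 0.14, adjusted p = 0.000125). Gpr157 read 115, 93.0 and 92.6 and 66.0, 67.5 and 61.4 (log2 change -0.61, SE 0.19, adjusted p = 0.00925). These groups did not overlap, and the call of Gpr157 was lost without GFP replicate 1 (adjusted p = 0.0659). Gpr19 stood at 21.0 ± 1.79 with GFP and 11.3 ± 2.09 with IRX3_WT (log2 change -0.85, SE 0.34, adjusted p = 0.0441). That call was lost without any 1 of the 6 libraries compared or without IRX3_S389A replicate 2 (adjusted p up to 0.147). Gpr137b, a lysosomal membrane protein, fell from 1623 ± 94.6 to 1253 ± 79.2 (log2 change -0.37, SE 0.06, adjusted p = 6.02e-07). The inner-membrane proteins Gpr107 and Gpr108 had log2 changes of 0.11 and 0.04 and were not called.

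Promoter sequence is shown for 5 members that fell or rose, to set the motif search beside the values. RefSeq (GRCm38.p6) windows held 52 of the 63 members, and the 250 bases before each start were searched on both strands. The motifs were ACANNTGT, a palindrome reported for Iroquois proteins that reads the same on both strands, and the NF-kappaB motif. ACANNTGT occurred in 6.31% of all 32851 windows and in 2 of the 65 member windows. The NF-kappaB motif occurred in 5.93% of all windows and in 5 member windows. Among members higher with IRX3_WT, 0 of 20 windows held ACANNTGT and 1 the NF-kappaB motif, and among those lower, 2 and 1 of 19. The windows shown are the 4 of called members with a match, and Cxcr4, a strong fall with 1 listed start, as an example without a match. Capitals mark the matches, and the last base of each run is the base before the start.
Cxcr4, chr1:128592300-128592549, minus strand: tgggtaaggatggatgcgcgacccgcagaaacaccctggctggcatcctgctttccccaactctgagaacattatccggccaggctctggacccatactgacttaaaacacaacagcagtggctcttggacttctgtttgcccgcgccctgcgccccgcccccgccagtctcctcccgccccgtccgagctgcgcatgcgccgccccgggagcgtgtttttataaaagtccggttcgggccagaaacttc
Ccrl2, chr9:111057519-111057768, minus strand: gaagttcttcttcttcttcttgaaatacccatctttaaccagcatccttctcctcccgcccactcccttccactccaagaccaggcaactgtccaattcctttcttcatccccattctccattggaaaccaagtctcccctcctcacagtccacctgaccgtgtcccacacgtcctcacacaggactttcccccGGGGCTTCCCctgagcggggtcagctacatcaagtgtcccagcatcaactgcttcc
Gpr176, chr2:118373420-118373669, minus strand: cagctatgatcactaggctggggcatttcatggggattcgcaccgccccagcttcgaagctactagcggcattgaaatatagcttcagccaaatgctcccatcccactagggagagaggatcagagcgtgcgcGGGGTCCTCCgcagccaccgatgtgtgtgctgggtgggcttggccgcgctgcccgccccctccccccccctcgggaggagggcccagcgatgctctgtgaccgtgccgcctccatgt
Gpr65, chr12:98268385-98268634, plus strand: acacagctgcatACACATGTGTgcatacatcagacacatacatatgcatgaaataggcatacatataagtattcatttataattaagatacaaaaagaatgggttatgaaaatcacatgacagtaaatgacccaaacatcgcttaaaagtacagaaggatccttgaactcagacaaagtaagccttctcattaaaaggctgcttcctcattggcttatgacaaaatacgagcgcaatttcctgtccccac
S1pr2, chr9:20976794-20977043, minus strand: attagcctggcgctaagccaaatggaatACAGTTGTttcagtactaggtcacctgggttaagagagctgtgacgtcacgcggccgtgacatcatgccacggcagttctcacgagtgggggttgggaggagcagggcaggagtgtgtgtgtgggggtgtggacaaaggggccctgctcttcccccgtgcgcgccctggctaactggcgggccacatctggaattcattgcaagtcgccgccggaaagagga

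Counted from the start, the Ccrl2 match begins at -56, in 1 of its 3 listed windows, and the Gpr176 match at -117. Gpr65 holds 2 overlapping copies of ACANNTGT from -238 and -236, and S1pr2 holds 1 from -222. Ccrl2 rose while Gpr176, Gpr65 and S1pr2 fell with IRX3_WT. A match is a description of these letters and not a binding site.

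IRX3_S361A was compared with IRX3_WT to ask how levels differed with the S361A substitution, in libraries that also held more Irx3 transcript. Of the 63 genes, 21 were called (33.3%), against 15.5% of all genes tested. The split was 7 higher and 14 lower, against 6.43% and 9.07% of all genes. A change of at least 1.5-fold was seen for 4 of the 63, against 2% of all genes. The 3 most abundant members per kb, Fpr2, Fpr1 and Ccrl2, were lower with IRX3_S361A, and so were Ptgir, Gpr132, Lpar1 and Adgrg6. S1pr1 and Cxcr4 rose. With libraries scaled to equal totals the split became 14 higher and 11 lower, with 18 of the 21 calls kept, and those of Gpr18, Gpr84 and Gpr85 lost. Leaving out 1 library at a time ended 8 of the 21 calls at least once, and the 7 higher calls became 4 without IRX3_S361A replicate 1. They were also 4 without a filter on low values.

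Fpr1 stood at 6810.1, 7152 and 6883 in the IRX3_S361A libraries (log2 change -0.63, SE 0.04, adjusted p = 3e-15 against IRX3_WT). These values lie just above the GFP range of 6132 to 6321 and far below the IRX3_WT range. Fpr2 stood at 9345, 10479.9 and 9985 (log2 change -0.38, SE 0.04, adjusted p = 1.61e-09), between the GFP and the IRX3_WT libraries. Ccrl2 read 6890.1, 7124 and 6366 (log2 change -0.52, SE 0.04, adjusted p = 1.81e-11), also between them. Ptgir read 528, 602 and 539 (log2 change -0.57, SE 0.07, adjusted p = 5.93e-08), and all 3 values were below the IRX3_WT range. Against GFP, Ptgir stayed barely higher (log2 change 0.18, SE 0.07, adjusted p = 0.0458), a call lost without any 1 of the 3 GFP libraries, IRX3_S361A replicate 2 or 3, or IRX3_S389A replicate 2 (adjusted p up to 0.266).

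Gpr132 fell to 364, 347 and 373 (log2 change -0.45, SE 0.08, adjusted p = 0.000132) and Lpar1 to 926, 1061 and 886 (log2 change -0.33, SE 0.06, adjusted p = 0.000105). Adgrg6 had 4392 ± 72.6 (log2 change -0.31, SE 0.04, adjusted p = 3e-07) and Adgre4 419 ± 31.2 (log2 change -0.46, SE 0.08, adjusted p = 2.42e-05). None of these 4 genes overlapped between IRX3_S361A and IRX3_WT. Ptger2, which had not passed the test between IRX3_WT and GFP, read 251, 238 and 240.1 with IRX3_WT and 177, 159 and 159.8 with IRX3_S361A (log2 change -0.55, SE 0.11, adjusted p = 0.000214).

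Adgrb2 fell to 15.2, 21.9 and 10.1 (log2 change -1.28, SE 0.34, adjusted p = 0.00684), within the GFP range or below it. That call was lost without IRX3_S361A replicate 3 or IRX3_WT replicate 1 (adjusted p up to 0.0629). Gpr18 (712 ± 68.5, log2 change -0.24), Gpr84 (2956 ± 132, -0.17) and Gpr85 (1499.6 ± 112, -0.18) were lower by smaller steps. For Gpr18 the call was lost without IRX3_S361A replicate 1 or 3 or IRX3_WT replicate 1 (adjusted p up to 0.104). For Gpr84 and Gpr85 the libraries overlapped those of IRX3_WT, and the call was lost without IRX3_S361A replicate 2 or 3 or IRX3_WT replicate 1 or 2 (adjusted p up to 0.101 and 0.157).

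In the other direction, S1pr1 read 71.9, 83.5 and 82.4 with IRX3_S361A, above every IRX3_WT library and far below every GFP library (log2 change 0.62, SE 0.16, adjusted p = 0.006). Cxcr4 read 57.7, 50.7 and 62.3 (log2 change 0.60, SE 0.19, adjusted p = 0.0293). This call was lost without IRX3_S361A replicate 1 or 3 or IRX3_WT replicate 1 or 2 (adjusted p up to 0.169), and also with DESeq2 on the recovered reads. S1pr2 returned to 1058 ± 62.1 (log2 change 0.31, SE 0.06, adjusted p = 0.000234) and Ptger4 to 517 ± 34.5 (log2 change 0.31, SE 0.07, adjusted p = 0.00268), and neither was called against GFP. Gpr137b rose by 0.17 on the log2 scale, a call lost without IRX3_S361A replicate 1 or IRX3_WT replicate 1 or 2 (adjusted p up to 0.168). Adgre5 rose by 0.36, a call lost without IRX3_S361A replicate 2 or IRX3_WT replicate 1 (adjusted p up to 0.0962). Ddx39 and a microRNA gene cover 24.6% of the exon bases of Adgre5.

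Hcar2 was the 1 member that had risen with IRX3_WT and was higher still with IRX3_S361A. Its libraries read 1675, 1665 and 1813 with GFP, 1989.7, 2093 and 2053 with IRX3_WT and 2313, 2184 and 2251 with IRX3_S361A (log2 change 0.14 between the last groups, adjusted p = 0.0358). That call was lost without IRX3_S361A replicate 1 or 3 or IRX3_WT replicate 1 or 3 (adjusted p up to 0.147).

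IRX3_S389A was compared with IRX3_WT to ask the same of the S389A substitution. Here 15 of the 63 genes were called (23.8%), against 15.3% of all genes tested. The split was 6 higher and 9 lower, against 8.21% and 7.08% of all genes. A change of at least 1.5-fold was seen for 2 of the 63, against 1.85% of all genes. Fpr1, Fpr2, Ptgir, Gpr18 and Gpr84 were lower, and S1pr2, Ptger4 and Gpr137b were higher. Irx3 transcript did not pass the test between these groups (log2 change 0.08, SE 0.19, adjusted p = 0.839). The split was 6 and 9 with libraries scaled to equal totals too. Leaving out 1 library at a time ended 5 of the 15 calls at least once, those of Adgre4, Ccr1, Ccrl2, Lpar5 and Gpr108. The 6 higher calls became 3 without IRX3_WT replicate 3.

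Fpr1 read 7125, 7426 and 7764 in the IRX3_S389A libraries (log2 change -0.53, SE 0.04, adjusted p = 5.93e-13) and Fpr2 9989, 10361 and 10134 (log2 change -0.35, SE 0.04, adjusted p = 2.34e-08). Ptgir read 598, 664 and 667 (log2 change -0.37, SE 0.07, adjusted p = 0.000181). All 9 values lie between the GFP and the IRX3_WT ranges. Gpr18 fell to 603, 632 and 643 (log2 change -0.42, SE 0.07, adjusted p = 2.11e-05), Gpr84 to 2818 ± 98.5 (log2 change -0.24, SE 0.05, adjusted p = 0.000585) and Adgrg6 to 4609 ± 188 (log2 change -0.24, SE 0.04, adjusted p = 3.39e-05). Adgrb2 fell to 11.4, 17.1 and 16.3 (log2 change -1.31, SE 0.34, adjusted p = 0.00618), inside or under the GFP range.

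Adgre4 had 491 ± 27.8 (log2 change -0.23, SE 0.08, adjusted p = 0.0339), a call lost without IRX3_S389A replicate 1 or 3 or IRX3_WT replicate 1 or 3 (adjusted p up to 0.176). Ccrl2 stayed close to IRX3_WT, at 8637, 9233 and 8630.0 (log2 change -0.14, SE 0.04, adjusted p = 0.0208), and this small fall was lost without IRX3_S389A replicate 1 or 3 or IRX3_WT replicate 1 (adjusted p up to 0.157). Lpar1 had 1142 ± 18.4 and was not called against IRX3_WT (log2 change -0.07, SE 0.06, adjusted p = 0.498).

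S1pr2 rose to 1254, 1256 and 1151 (log2 change 0.52, SE 0.06, adjusted p = 4.66e-08), in or above the GFP range, and Ptger4 to 508, 497 and 521 (log2 change 0.29, SE 0.07, adjusted p = 0.00533). Lpar5 rose from 5.56 ± 2.38 to 12.6 ± 1.49 (log2 change 1.11, SE 0.36, adjusted p = 0.0324), far under the 70.2 ± 10.0 of GFP. That call was lost without GFP replicate 2 or 3, IRX3_WT replicate 2 or 3 or any IRX3_S389A library (adjusted p up to 0.15). DESeq2 and edgeR on all recovered reads did not make this call either. Ccr1 rose by 0.40 on the log2 scale, to 254 ± 24.8, a call lost without IRX3_S389A replicate 2 or IRX3_WT replicate 2 or 3 (adjusted p up to 0.157). Gpr137b rose by 0.21 (adjusted p = 0.00718). Gpr108 rose by 0.18, lost without IRX3_S389A replicate 1 or 2 or IRX3_WT replicate 1 or 3 (adjusted p up to 0.159).

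Each substituted construct was also set against the same 3 GFP libraries, so the comparisons with GFP share their controls. Against GFP, 29 of the 63 members (46%) were called with IRX3_S361A, against 25.9% of all genes. The split was 16 higher and 13 lower, against 14.9% and 10.9% of all genes. With IRX3_S389A 28 of the 63 (44.4%) were called, against 35% of all genes. That split was 18 higher and 10 lower, against 18.8% and 16.2% of all genes. With libraries scaled to equal totals these splits became 10 higher and 18 lower, and 10 higher and 17 lower. Under that scaling 6 of the 29 and 8 of the 28 calls were lost, among them Fpr1 and Adgrg6 with both substitutions. Leaving out 1 library at a time ended 10 of the 29 and 7 of the 28 calls at least once. Of the 19 members that rose with IRX3_WT, 12 were lower with IRX3_S361A than with IRX3_WT and 14 remained higher than with GFP, against 37.4% and 59.8% of the 2805 genes that rose in the whole table. For IRX3_S389A these counts were 9 and 15, against 23.5% and 69.6%. Of the 17 members that fell with IRX3_WT, 5 were higher with IRX3_S361A than with IRX3_WT and 10 remained lower than with GFP, against 25% and 47.7% of the 2483 genes that fell. For IRX3_S389A the counts were 5 and 9, against 20.7% and 60.4%. No member that had changed with IRX3_WT was called in the opposite direction against GFP with either substitution. The IRX3_WT libraries stand in both of these comparisons and the counts are not independent.

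Lpar6 and Ccr2 were below GFP with all 3 IRX3 constructs and were not called between either substitution and IRX3_WT. Lpar6 read 92.1, 125 and 135 with IRX3_S361A and 103, 118 and 119.9 with IRX3_S389A, and its log2 differences from IRX3_WT were -0.01 (SE 0.13) and -0.04 (SE 0.13). Ccr2 read 123, 117 and 151 and 117, 135 and 138, with log2 differences from IRX3_WT of 0.34 (adjusted p = 0.079) and 0.34 (adjusted p = 0.081). Adgrl2 and Cysltr1 likewise were not called between either substitution and IRX3_WT, and all 3 constructs were above GFP. Their means were 1783 ± 43.0 and 1380.1 ± 132 with IRX3_S361A, and 1688 ± 50.2 and 1322 ± 60.9 with IRX3_S389A. A missed threshold does not show that the constructs act alike.

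**Figure D5:**
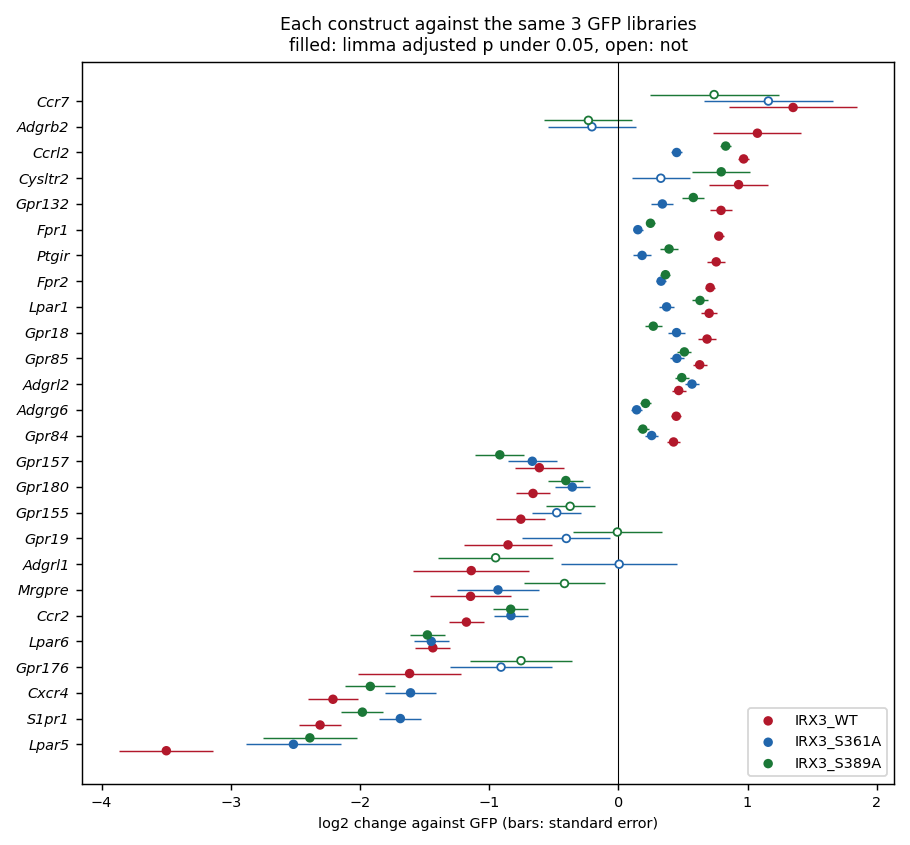
Log2 change against the shared GFP libraries (horizontal axis) of 26 receptor genes, for IRX3_WT, IRX3_S361A and IRX3_S389A, with the standard error as a bar. Filled points passed an adjusted p of 0.05. For Fpr1, Fpr2 and Ptgir the points of both substitutions lie nearer 0 than the IRX3_WT point, while for Lpar6 the 3 points lie at -1.44, -1.45 and -1.48.

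The substituted constructs were compared with each other as well. IRX3_S389A was higher than IRX3_S361A for 7 of the 63 members (11.1%) and lower for 0. Of all genes, 7% were higher and 3.16% lower (10.2% in either direction). With libraries scaled to equal totals the split was 2 higher and 2 lower. Ccrl2 had the clearest difference (6793 ± 388 with IRX3_S361A, 8833 ± 346 with IRX3_S389A, log2 change 0.38, SE 0.04, adjusted p = 6.91e-08), and it was called in every setting tried. Lpar1 followed (log2 change 0.26, SE 0.06, adjusted p = 0.00296), but without IRX3_S361A replicate 3 its adjusted p was 0.0527. Adgre4, S1pr2, Gpr141 and Ptgir were also among them, with log2 differences of 0.23, 0.21, 0.25 and 0.21. Leaving out 1 library at a time ended each of these 4 calls, and the count of 7 fell to 1 without IRX3_S361A replicate 3. It fell to 2 and 3 without IRX3_S389A replicates 2 and 3, and to 4 without IRX3_S361A replicate 1. The higher Irx3 transcript of the IRX3_S361A libraries bears on this comparison too.

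Over the 6 comparisons, 45 members were called at least once and 18 never. The share of all genes called at least once was not counted, so the 45 have no background to be read against. A test over the 4 groups called 40 of the 63 members (63.5%), against 44.2% of all genes. The 18 never called were Adgra2, Adgra3, Adgrg3, Ccr3, Cxcr3, Cxcr6, Fpr3, Lpar2, Lpar4, S1pr4, Gpr4, Gpr31b, Gpr89, Gpr107, Gpr153, Gpr160, Gpr179 and Ptger3. Gpr107 (1571 to 1814 normalized counts), Gpr89 (369 to 468) and Ccr3 (138 to 213) had the highest means of these 18.

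Genes that act with these receptors were listed beside them. Of the chemokine ligands, 15 of 20 tested were higher with IRX3_WT than with GFP and 0 lower (75% called, against 39.6% of all genes), with a median log2 change of 0.53. Cxcl5, Cxcl3 and Ccl5 rose by 1.85, 1.35 and 1.26 on the log2 scale. Against IRX3_WT, 11 of the 20 ligands were lower and 2 higher with IRX3_S361A, against 9.07% and 6.43% of all genes. With IRX3_S389A 8 were lower and 5 higher, against 7.08% and 8.21% of all genes. Among the ligands of Ccr2, Ccl7 was not called with IRX3_WT against GFP (log2 change -0.05) and Ccl2 was not either (0.01). Ccl3, which Ccr1 binds, rose by 0.69.

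Of 18 enzymes and proteins that make or break lipid ligands, 3 rose and 5 fell with IRX3_WT (44.4%, near the 39.6% of all genes), and with libraries scaled to equal totals 13 were called. Ptgs2 and Ptges, which make prostaglandin E2, rose by 1.41 and 1.46, while Hpgd, which breaks prostaglandins down, fell by 2.13 on the log2 scale. Ptgs1, the constitutive cyclooxygenase, fell by 0.82. Among the receptors of prostaglandin E2 described above, Ptger4 was lower, and Ptger2 and Ptger3 were not called. Annexin A1, a ligand of Fpr2, had a log2 change of 0.02 and was not called.

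Of 19 G protein subunits, 6 rose and 3 fell with IRX3_WT, or 47.4% called, near the 39.6% of all genes tested. The 25 tested effectors gave 10 rises and 9 falls (76%). Pde4b, the phosphodiesterase that clears cyclic AMP in stimulated macrophages, rose from 3806 ± 68.7 to 6873 ± 323 normalized counts (log2 change 0.85, SE 0.04, adjusted p = 3.58e-20). Of 16 genes that end receptor signalling, 2 rose and 7 fell (56.2%). Rgs2, which turns off Gq, read 1159, 1146 and 1235 with GFP, 466, 502 and 365 with IRX3_WT, 529, 458 and 488 with IRX3_S361A and 717, 705 and 697 with IRX3_S389A. It fell with IRX3_WT (log2 change -1.42, SE 0.08, adjusted p = 1.26e-15) and was higher with IRX3_S389A than with IRX3_WT (log2 change 0.68, SE 0.08, adjusted p = 2.58e-07). Arrb1, an arrestin, fell by 0.49 and the receptor kinase Grk3 rose by 0.53.

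Receptors of the rhodopsin-like kind outside the symbol rule changed in both directions too. With IRX3_WT against GFP, 8 of 20 were higher and 5 lower (65% called, against 39.6% of all genes). Adora2a, the Gs-coupled adenosine receptor, rose by 1.29 with IRX3_WT on the log2 scale. It was lower by 0.88 and 0.61 with IRX3_S361A and IRX3_S389A than with IRX3_WT, on the same scale. C5ar2 and P2ry6 fell by 1.23 and 0.98. The excluded Gpr183 had a log2 change of -4.40, beyond that of any member. The stromal marker Pdgfrb moved with the higher members, at 84.6 ± 13.2 with GFP, 225 ± 5.65 with IRX3_WT, 123 ± 16.1 with IRX3_S361A and 167 ± 15.4 with IRX3_S389A. The stromal and endothelial list summed to 111 to 156 with GFP and 267 to 286 with IRX3_WT. Its other tested members, Col1a2, Pecam1 and Cdh5, were not called, and the list's part in the results was not tested.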

How the data were processed

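Total RNA of 12 libraries was sequenced. Per the submitters' processing notes, Trimmomatic, HISAT2 2.1.0 and StringTie 1.3.5 were used with mm10. Not given in the sources used here were the counter, its strand setting and the annotation release. The authors deposited a normalized signal per gene, and the deposited values are read counts divided by 1 size factor per library. Dividing by the value of 1 read gave whole reads for every value at a tolerance of 1e-06, with 17149058 to 20108002 reads per library. In 3 libraries 1 read lay within 1% of a value of 1, so the check is weaker there.

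Genes with at least 10 in at least 3 libraries (13369 of 55401) were fitted with limma 3.58.1 (R 4.3.3, trend and robust settings) on log2(value + 1), in 1 fit of the 4 groups, with Benjamini-Hochberg adjustment over these genes and a threshold of 0.05. All adjusted p-values in the text are from limma, and fold changes on this scale are understated for low genes. Alternatives were edgeR 4.0.16 and DESeq2 1.42.0 on the recovered reads, other scalings, filters and pseudocounts, and leaving out each library. The floor of 3 reads covers counting error only.

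Symbols, exon lengths and coordinates are from GENCODE on GRCm38 (mm10), which matched 99.5% of the identifiers. Values in every library were due for members called with at least a 1.5-fold change in a comparison of IRX3_WT with GFP or of a substitution with IRX3_WT, and for the member of each class with the smallest p or the highest level per kb. Other genes described in full, and some of the pathway genes, were chosen after their values were seen. The members and lists were chosen with earlier results of these data known. The labels do not say whether replicate numbers pair the libraries, and the numbers were not used in the main fit. Some items are not reported here.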

Additional observations from a re-analysis of the deposited data

How the results depend on the processing

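A total of 3858 comparisons of a result with an alternative setting were made, all on the same libraries. No called change of a single gene reversed direction, while the comparisons of counts have no direction to reverse. Of the counts of receptor genes called, 156 stayed within 1.5 times of the reported count and 11 moved further. With edgeR on the recovered reads of 9 libraries, chosen after seeing the data, 12 receptor genes were called between IRX3_S361A and IRX3_WT, 16 between IRX3_S361A and GFP and 3 between IRX3_S389A and IRX3_S361A. That fit left 1 IRX3_S361A library, which is assumed to vary like the other groups. The last comparison gave 4 calls with TMM scaling, 4 with edgeR on all recovered reads, 4 with equal totals and 4 without a filter, against 7 reported, and the cause was not tested. Leaving out 1 library at a time gave 1 to 7. For single genes and gene lists, counted as pairs of a result and a setting, 3407 pairs stayed on the same side of the threshold or kept their count within 1.5 times, 272 lost a call and 12 list counts moved. Same-numbered libraries correlated at -0.041 to 0.030 (0 of 18 pairs over 0.1). A replicate block gave 35, 21, 15, 28, 28 and 5 calls, against 36, 21, 15, 29, 28 and 7, in the order IRX3_WT against GFP, IRX3_S361A and IRX3_S389A against IRX3_WT, both against GFP, and IRX3_S389A against IRX3_S361A. Genes under about 3 normalized counts are not resolved at this depth.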
